A study of Mus musculus with 18 samples.

Results

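The genes described here are the D cyclins, their kinase partners and the inhibitors that set the pace of the G1 phase in mouse myeloid cells. They were taken by gene symbol and comprise Ccnd1, Ccnd2 and Ccnd3, the kinase genes Cdk4 and Cdk6, the CIP/KIP inhibitor genes Cdkn1a, Cdkn1b and Cdkn1c, and the INK4 inhibitor genes Cdkn2c and Cdkn2d. All 10 symbols were found among the 22787 genes of the expression table. RNA of 18 samples was profiled by SmartSeq2, a low-input full-length RNA sequencing method.

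Granulocyte-monocyte progenitors (GMPs), the marrow cells that give rise to neutrophils and monocytes, made up 12 of the libraries, with 3 each from the knockout groups Raptor KO and Tsc2 KO and from their controls Raptor fl/fl and Tsc2 fl/fl. Raptor, encoded by Rptor, is a defining subunit of the kinase complex mTORC1, and Tsc2 is part of the complex that restrains mTORC1. The fl/fl groups carry the floxed allele without the knockout. The labels used here name neither the Cre driver nor the ages or sexes of the mice, and give no word on whether replicates came from separate mice or cultures, so p-values measure only the spread between these libraries. The GMP gate took cells without Sca-1, CD127 or CD135, with little CD34 or Ly6C, and with kit and FcgRII/III. The other 6 libraries, 2 per treatment, came from the immortalized line DR-ER-Hoxb8, whose progenitors are held immature by estradiol-activated Hoxb8. They differentiated over 3 days after estradiol was withdrawn, in medium with SCF and with rapamycin at 100 nM (an mTORC1 inhibitor), with SL0101-01 at 10 nM (an inhibitor of RSK kinases, called SL0101 below) or with the vehicle DMSO. All Hoxb8 groups therefore share the line, the withdrawal of estradiol and the 3 days of culture.

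D cyclins bind CDK4 or CDK6, and the active pair phosphorylates the retinoblastoma protein, which frees E2F factors to switch on genes for DNA replication. INK4 proteins such as p18 and p19 bind CDK4 and CDK6 and keep cyclin D away, whereas the CIP/KIP proteins p21, p27 and p57 bind cyclin-CDK pairs and block CDK2. In mice, cyclin D3 and CDK6 are known for roles in granulocyte and red cell precursors. Only RNA was measured, and mTORC1 also acts on translation, so nothing here speaks to protein amounts.

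Each value is a gene's fragment number scaled by the size factor of its library, in signal units (below, units). Depth per library was 2.48 to 3.52 M fragments for the GMPs and 2.31 to 3.30 M for the line. The targeted genes followed the titles in direction: Tsc2 had 103, 99.0 and 83.0 units in Tsc2 KO against 269, 235 and 241 in Tsc2 fl/fl GMPs (log2 fold change -1.38, adjusted p = 1.7e-04), while Rptor had 61.6, 58.7 and 69.5 units in Raptor KO against 88.0, 78.6 and 86.8 in Raptor fl/fl GMPs, a difference that did not pass (log2 fold change -0.41, adjusted p = 0.377). The GMP markers Mpo and Elane were abundant in every GMP library, with Mpo at 4820 units or more. Libraries of the Tsc2 line were not uniform. The summed level of 12 erythroid markers was 14409, 28371 and 25836 units in Tsc2 KO, against 3724, 12231 and 6466 in Tsc2 fl/fl GMPs, so that Tsc2 fl/fl replicate 2 came close to Tsc2 KO replicate 1. Replicate 2 of each Tsc2 group also held Y-linked RNA (318 units in Tsc2 KO and 385 in Tsc2 fl/fl, summed over 4 genes), whereas no other GMP library passed 0.78. In bulk RNA, more cells of a type and more RNA per cell cannot be told apart.

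RefSeq promoter windows of GRCm38.p6, from 250 bases before to 50 bases after a transcription start, were at hand for 7 of the 10 genes, and not for Ccnd1, Ccnd2 and Cdkn1c. Those of Ccnd3, Cdk6 and Cdkn2d are shown because these genes changed, and that of Cdk4 because it had the most E-boxes. Letters run 5′ to 3′ on the gene's strand, and capitals mark matches, on either strand, to the E-box CACGTG (bound by MYC with MAX), the GC box GGGCGG (bound by SP1) and the forkhead motif GTAAACA (bound by FOXO factors).
Ccnd3, upstream start, chr17:47504801-47505100, plus strand: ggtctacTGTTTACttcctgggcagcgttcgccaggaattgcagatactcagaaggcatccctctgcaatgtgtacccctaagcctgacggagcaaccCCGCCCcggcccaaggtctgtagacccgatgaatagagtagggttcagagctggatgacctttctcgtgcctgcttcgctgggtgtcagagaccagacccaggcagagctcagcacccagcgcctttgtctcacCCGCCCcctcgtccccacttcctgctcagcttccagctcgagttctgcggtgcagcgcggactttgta
Ccnd3, downstream start, chr17:47593217-47593516, plus strand: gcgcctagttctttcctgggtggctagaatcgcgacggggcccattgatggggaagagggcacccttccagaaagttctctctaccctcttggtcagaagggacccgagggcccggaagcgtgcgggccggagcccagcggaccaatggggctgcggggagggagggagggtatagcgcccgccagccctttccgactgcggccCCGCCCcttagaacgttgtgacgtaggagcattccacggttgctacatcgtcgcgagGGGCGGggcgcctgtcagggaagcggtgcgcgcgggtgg
Cdk4, chr10:127063285-127063584, plus strand: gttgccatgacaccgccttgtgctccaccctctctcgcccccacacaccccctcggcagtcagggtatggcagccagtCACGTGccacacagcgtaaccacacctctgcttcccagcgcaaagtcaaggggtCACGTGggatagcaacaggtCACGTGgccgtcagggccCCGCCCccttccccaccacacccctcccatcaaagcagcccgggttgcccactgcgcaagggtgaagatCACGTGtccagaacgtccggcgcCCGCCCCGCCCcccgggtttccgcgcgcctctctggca
Cdk6, chr5:3343643-3343942, plus strand: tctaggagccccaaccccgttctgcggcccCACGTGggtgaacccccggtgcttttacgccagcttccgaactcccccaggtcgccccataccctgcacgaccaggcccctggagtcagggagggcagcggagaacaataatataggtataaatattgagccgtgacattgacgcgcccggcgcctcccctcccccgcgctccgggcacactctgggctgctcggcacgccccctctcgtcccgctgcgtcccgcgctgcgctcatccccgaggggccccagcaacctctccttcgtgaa
Cdkn2d, chr9:21291160-21291459, minus strand: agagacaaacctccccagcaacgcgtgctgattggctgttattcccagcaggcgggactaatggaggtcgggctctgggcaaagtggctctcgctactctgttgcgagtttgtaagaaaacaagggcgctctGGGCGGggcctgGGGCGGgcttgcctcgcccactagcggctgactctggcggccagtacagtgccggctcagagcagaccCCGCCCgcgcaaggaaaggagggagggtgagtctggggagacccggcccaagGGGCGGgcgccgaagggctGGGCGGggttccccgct
The Cdk4 window held 4 E-boxes, which begin 172, 118, 98 and 11 bases before the start, and Cdk6 held 1. A Cdkn2c window, not shown, also held 1, which begins at base 35 after the start. An E-box occurred in 7.15% of all 32817 windows and 4 or more in 8 of them (0.0244%). Cdkn2d carried 5 GC boxes, where 35.6% of windows had at least 1 and 5.49% had 4 or more. Windows of Ccnd3, Cdk4, Cdkn1a, Cdkn1b and Cdkn2c held GC boxes too. The forkhead motif, in 3.65% of windows, appeared at the upstream Ccnd3 start. Searches for E2F sites (TTTCCCGC, TTTCGCGC, TTTGCCGC or TTTGGCGC, in 2.26% of windows) and STAT sites (TTCNNNGAA, in 8.29%), found no match in the 7 genes. A match is a run of letters, not evidence of binding.

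**Figure D1:**
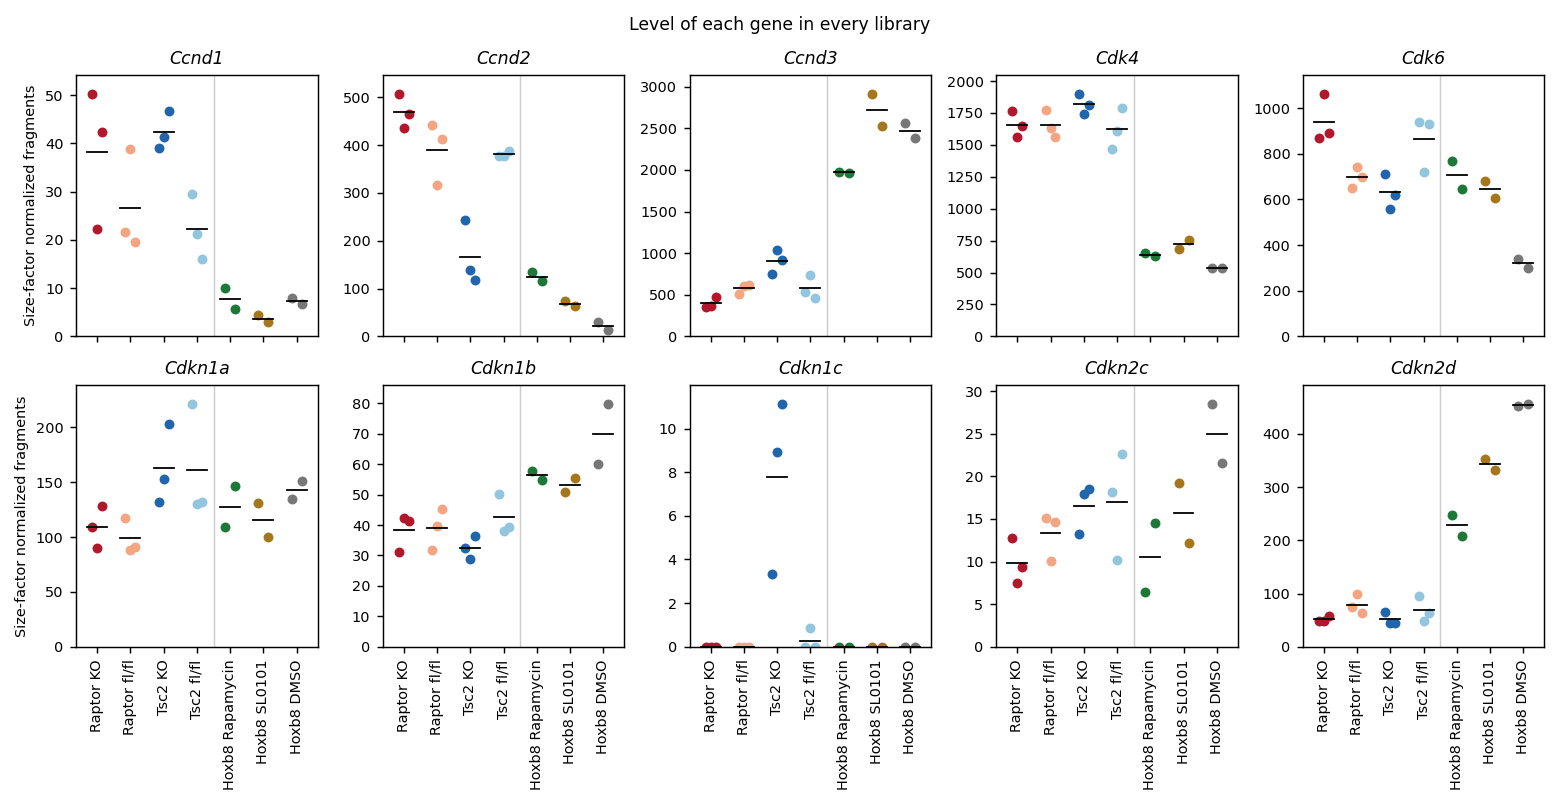
Level of each of the 10 genes in every library, in signal units on linear axes that start at 0, with 1 dot per library and a bar at the group mean. Every Hoxb8 library lies above every GMP library for Ccnd3, Cdkn2d and, barely, Cdkn1b, and below for Cdk4 and Ccnd1. Ccnd2 overlaps between Tsc2 KO GMPs and rapamycin, and Cdkn1c leaves 0 in Tsc2 KO and in 1 Tsc2 fl/fl library.

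Cdkn1c was tested in GMPs only because the 3 Tsc2 KO libraries held it, so it is left out of the counts of genes that passed and its fragments are given below. Of the other 9 genes, 4 passed in at least 1 of the 6 comparisons at an adjusted p of 0.05 (limma, Benjamini-Hochberg over all genes tested) and 5 passed in none. In Raptor KO against Raptor fl/fl GMPs no gene of the set passed in limma, with or without voom weights, where 3.94% of all 13237 genes tested did; 3 were under 0.05 before adjustment, and Ccnd3 and Cdk6 passed when the Raptor libraries were fitted alone (adjusted p = 0.0083 and 0.0133). In Tsc2 KO against Tsc2 fl/fl 3 of 9 passed, Ccnd3 upward and Ccnd2 and Cdk6 downward, against 12.4% of all genes, and the difference between both knockout effects passed for Ccnd2, Ccnd3 and Cdk6, also against 12.4%. In Hoxb8 cells 3 of 9 passed with rapamycin against DMSO (11.7% of all 11804 genes tested), 2 of 9 with SL0101 against DMSO (10.9%) and 2 of 9 with rapamycin against SL0101 (8.87%). Without the expression trend and robust moderation, 0 passed in limma in each Hoxb8 comparison (lowest adjusted p with rapamycin 0.0561; before adjustment and with both, 5, 4 and 3 were under 0.05), and in the Tsc2 KO comparison Ccnd3 (adjusted p = 0.0986) and Cdk6 (0.136) were lost. In Tsc2 KO, Ccnd3 and Cdk6 were also lost when the Tsc2 libraries were fitted alone. The inhibitor comparisons share their DMSO libraries. The libraries of both groups did not overlap for 3 of 10 genes in the Raptor comparison (26.4% of all genes tested) and 6 of 10 in the Tsc2 comparison, Cdkn1c among them (27.8%). In Hoxb8 cells this held for 7 genes with rapamycin (52.3%), 8 with SL0101 (54.7%) and 5 between the inhibitors (51.1%).

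**Figure D2:**
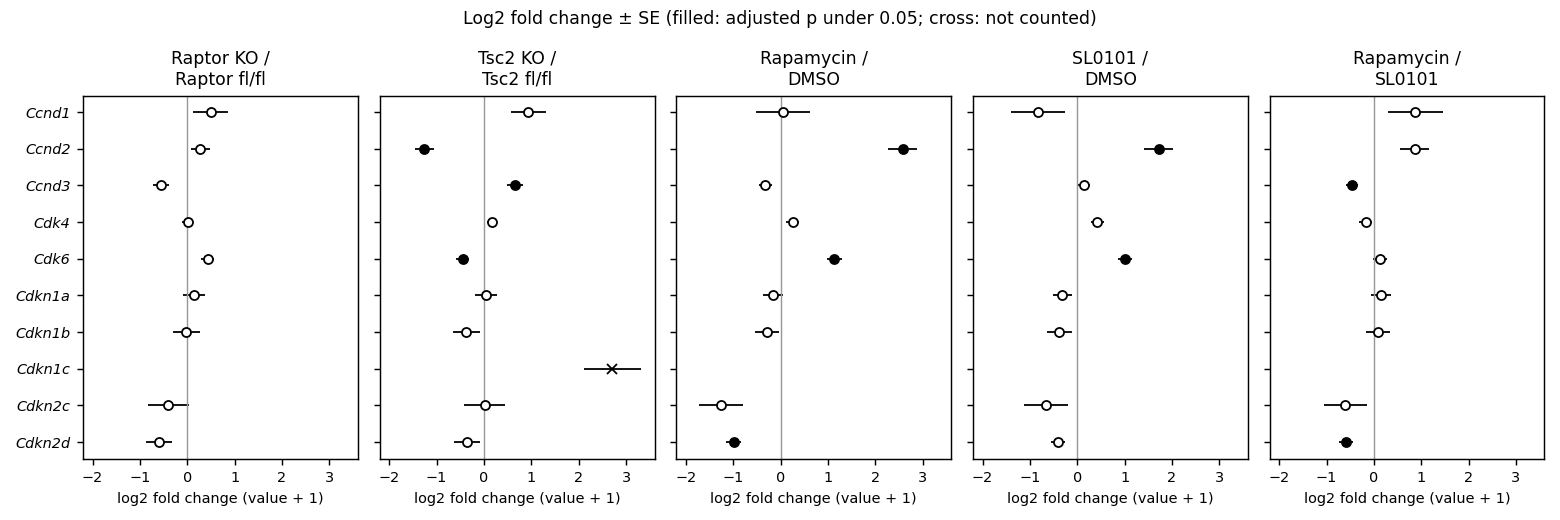
Log2 fold change of each gene on value plus 1, with bars of 1 SE, in the comparisons of 2 groups; filled symbols passed at an adjusted p of 0.05, and the cross marks Cdkn1c in Tsc2 KO, which is not counted; it has no symbol where it was at 0. Ccnd2 and Cdk6 lie below 0 in Tsc2 KO and above 0 with both inhibitors, and Ccnd3 lies above 0 in Tsc2 KO.

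Ccnd2, which encodes cyclin D2, passed in 4 of the 6 comparisons. It had 507, 435.5 and 465 units in Raptor KO against 442, 316 and 413 in Raptor fl/fl GMPs, and these libraries did not separate (log2 fold change 0.28 ± 0.20 SE, adjusted p = 0.505). In the Tsc2 line it had 243, 138 and 118 units in Tsc2 KO against 378, 376.5 and 388 in Tsc2 fl/fl. All 3 Tsc2 KO libraries lay below all 3 controls, whose spread was small, and the gene fell by 1.26 ± 0.20 on the log2 scale (adjusted p = 9.99e-04). The effect of Raptor loss exceeded that of Tsc2 loss by 1.54 ± 0.29 (adjusted p = 0.0036).

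With inhibitors in Hoxb8 cells, Ccnd2 rose in both treatments. It had 134 and 116 units with rapamycin and 73.5 and 63.7 with SL0101, against 30.0 and 13.3 with DMSO, so the 3 groups did not overlap. The log2 fold change over DMSO was 2.58 ± 0.31 with rapamycin (adjusted p = 5.4e-06) and 1.72 ± 0.31 with SL0101 (adjusted p = 8.3e-04). Rapamycin exceeded SL0101 by 0.86 (95% interval 0.22 to 1.50), which did not pass after adjustment (adjusted p = 0.0868). Over the 7 groups, Ccnd2 was highest in Raptor KO (469 ± 36.0, SD, n = 3), overlapping Raptor fl/fl, and lowest in Hoxb8 DMSO (21.7 ± 11.8, n = 2); Tsc2 KO and Hoxb8 rapamycin, in the middle of the order, overlapped.

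Ccnd3, which encodes cyclin D3, moved the other way in the Tsc2 line. It had 352, 362 and 476 units in Raptor KO against 514, 601 and 623 in Raptor fl/fl GMPs; the groups did not overlap, yet the log2 fold change of -0.55 ± 0.17 did not pass (adjusted p = 0.0745). Tsc2 KO libraries had 754, 1040.5 and 916 units against 537.5, 742 and 465 in Tsc2 fl/fl, an increase of 0.65 ± 0.17 (adjusted p = 0.0184). The lowest Tsc2 KO library, replicate 1, was barely above the highest control, replicate 2, and these are the libraries that lay close in their erythroid sums. Leaving out any 1 of Tsc2 fl/fl replicate 1 or 3 or Tsc2 KO replicate 2 or 3 ended the call, with an adjusted p of up to 0.103. The difference between the knockout effects, -1.20 ± 0.24 (adjusted p = 0.00486), passed with each library left out.

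In Hoxb8 cells Ccnd3 overlapped between SL0101 and DMSO and was lowest with rapamycin. It had 1975 and 1968 units with rapamycin, 2913 and 2523 with SL0101 and 2563 and 2381 with DMSO. Rapamycin libraries lay below those of both other groups, but only the comparison with SL0101 passed (-0.46 ± 0.13, adjusted p = 0.0349, against -0.33 ± 0.13, adjusted p = 0.128, for DMSO). That call was lost when any of the 4 libraries compared was left out. All Hoxb8 libraries stood above all GMP libraries, a difference between a line and sorted cells that was not tested.

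The balance between the 2 cyclins within a library shows the opposite movements in 1 value. The ratio of Ccnd2 to Ccnd3 units was 1.44, 1.20 and 0.976 in Raptor KO, against 0.860, 0.526 and 0.663 in Raptor fl/fl GMPs. It was 0.322, 0.133 and 0.129 in Tsc2 KO, against 0.703, 0.507 and 0.836 in Tsc2 fl/fl. In both lines the knockout libraries were thus apart from their controls, upward for Raptor and downward for Tsc2. Hoxb8 ratios were 0.0678 and 0.0592 with rapamycin and 0.0252 in both SL0101 libraries, against 0.0117 and 0.00558 with DMSO.

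**Figure D3:**
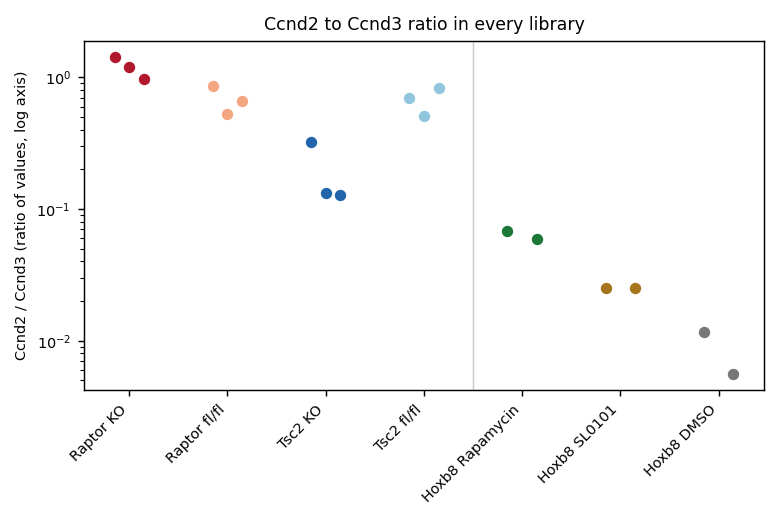
Ratio of Ccnd2 to Ccnd3 units in each library on a log axis, 1 dot per library. The Raptor KO libraries, at 0.976 to 1.44, lie above and the Tsc2 KO libraries, at 0.129 to 0.322, below the fl/fl libraries, which span 0.507 to 0.860, and each Hoxb8 inhibitor group lies above DMSO.

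Levels can be set between the cyclins only per length. Divided by the longest coding transcript in kb (GENCODE M21), Ccnd3 made up 69.0% of the summed D cyclin level per kb in Raptor KO and 79.9% in Raptor fl/fl GMPs, 91.9% in Tsc2 KO and 80.6% in Tsc2 fl/fl, and 97.7% or more in each Hoxb8 group. Divided by all annotated exons, which count 8.78 kb for Ccnd3 in place of 2.11 kb, its share was 43.8% in Raptor KO, below the 48.3% of Ccnd2, and 58.3% in Raptor fl/fl. Which cyclin leads in Raptor KO GMPs therefore turned on the length used, while Ccnd3 led in the other 6 groups with both.

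Ccnd1, which encodes cyclin D1, was the lowest D cyclin per kb in all 7 groups with both lengths and did not pass anywhere. It had 50.2, 22.3 and 42.3 units in Raptor KO against 21.6, 38.9 and 19.5 in Raptor fl/fl, and 39.1, 41.3 and 46.7 in Tsc2 KO against 29.5, 21.2 and 16.0 in Tsc2 fl/fl. The Tsc2 groups did not overlap, with a log2 fold change of 0.94 ± 0.37 (adjusted p = 0.106). Hoxb8 cells had 10.1 and 5.6 units with rapamycin, 4.37 and 3.03 with SL0101 and 7.90 and 6.64 with DMSO, a few fragments each, so that the inhibitor intervals ran from -1.14 to 1.25 and from -2.02 to 0.37.

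The kinase genes behaved differently from each other. Cdk4 was steady in GMPs, with 1769, 1561 and 1646 units in Raptor KO against 1774, 1629 and 1562 in Raptor fl/fl, and 1899, 1739 and 1812 in Tsc2 KO against 1464, 1609 and 1792 in Tsc2 fl/fl. The 95% intervals, -0.22 to 0.23 for Raptor and -0.05 to 0.39 for Tsc2, both include 0. Hoxb8 cells had 649.8 and 626 units with rapamycin and 684 and 758 with SL0101, against 533 and 537 with DMSO. The inhibitor libraries were higher without overlap, but neither comparison passed (0.25 ± 0.14, adjusted p = 0.287 for rapamycin, and 0.43 ± 0.14, adjusted p = 0.0553 for SL0101). The SL0101 comparison sat near the threshold: Cdk4 passed upward in 6 of 11 other settings (adjusted p from 0.0167 to 0.238 over the 11) and in none of the 4 fits that left out 1 library.

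Cdk6 passed in the same 4 comparisons as Ccnd2, with the same signs. It had 867, 1062 and 891 units in Raptor KO against 651, 742 and 697 in Raptor fl/fl, apart but not past the threshold (0.43 ± 0.13, adjusted p = 0.0783). Tsc2 KO libraries had 712, 558 and 621.5 units against 940, 719 and 931 in Tsc2 fl/fl, and the gene fell by 0.45 ± 0.13 (adjusted p = 0.0339). As for Ccnd3, Tsc2 KO replicate 1 and Tsc2 fl/fl replicate 2 nearly met, and the call ended without Tsc2 fl/fl replicate 1 or 3 or Tsc2 KO replicate 2 or 3 (adjusted p up to 0.178). The difference between the knockout effects was 0.88 ± 0.19 (adjusted p = 0.00715). In Hoxb8 cells Cdk6 had 768 and 644 units with rapamycin and 682 and 606 with SL0101, against 338 and 301 with DMSO. It rose with both treatments, by 1.14 ± 0.15 (adjusted p = 1.8e-05) and 1.01 ± 0.15 (adjusted p = 1.3e-04) on the log2 scale, and the interval of rapamycin over SL0101 ran from -0.18 to 0.44. By group mean, Cdk6 was lowest in Hoxb8 DMSO (320 ± 26.1, n = 2), apart from all other groups, whereas the 6 groups above it each overlapped the next. Per kb of the longest coding transcript, Cdk4 was 83.5% (Hoxb8 rapamycin) to 94.2% (Tsc2 KO) of the CDK4 and CDK6 sum.

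Of the CIP/KIP genes, Cdkn1a and Cdkn1b passed nowhere. Cdkn1a, which encodes p21, the inhibitor that p53 induces, had 109, 89.9 and 129 units in Raptor KO against 118, 88.0 and 90.9 in Raptor fl/fl, and 132, 153 and 203 in Tsc2 KO against 221, 130.3 and 132 in Tsc2 fl/fl. Neighbouring groups overlapped through the whole order of the 7 group means, which spanned 98.8 to 163. Groups further apart in that order could still separate. All libraries of the Raptor line, at 88.0 to 129 units, lay below all of the Tsc2 line, at 130.3 to 221, a difference between lines that was not tested. Hoxb8 libraries had 109 and 147 units with rapamycin and 131 and 100.0 with SL0101, against 134 and 151 with DMSO. SL0101 lay below DMSO without overlap, but the difference did not pass (log2 fold change -0.31, adjusted p = 0.395). Cdkn1b, which encodes p27, had 31.1, 42.4 and 41.3 units in Raptor KO against 31.7, 39.7 and 45.4 in Raptor fl/fl, and 32.5, 28.9 and 36.3 in Tsc2 KO against 50.3, 38.1 and 39.5 in Tsc2 fl/fl. Both pairs of inhibitor libraries were below DMSO, at 57.7 and 54.9 units with rapamycin and 50.7 and 55.3 with SL0101 against 60.0 and 79.7, with intervals of -0.83 to 0.24 and -0.92 to 0.16.

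Cdkn1c, which encodes p57 and is imprinted in mice, was seen in the Tsc2 line alone. It had 3.31, 8.94 and 11.1 units in Tsc2 KO, from 5, 13 and 15 fragments, and 1 fragment (0.846 units) in Tsc2 fl/fl replicate 2, against 0 in the other 2 Tsc2 fl/fl libraries. The fragment ratio of Tsc2 KO to Tsc2 fl/fl, 33 against 1 scaled for library size, was 26.0, with an exact 95% interval of 4.35 to 1058 that covers counting error only. The gene was listed at 0 in all 6 libraries of the Raptor line and in all 6 Hoxb8 libraries, and it entered the test only through the 3 Tsc2 KO libraries, so its limma result is not counted as a call. A count of 0 allows up to 3 fragments, or 1.99 to 2.82 units in a GMP library.

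Of the INK4 genes only Cdkn2d passed, in Hoxb8 cells. Cdkn2d, which encodes p19, had 48.8, 47.6 and 58.3 units in Raptor KO against 75.0, 98.9 and 64.1 in Raptor fl/fl, apart but not past the threshold (-0.60 ± 0.28, adjusted p = 0.2499), and 66.3, 45.4 and 45.2 in Tsc2 KO against 95.4, 48.2 and 64.0 in Tsc2 fl/fl, which overlapped. In Hoxb8 cells it had 248 and 208 units with rapamycin and 353 and 332 with SL0101, against 452 and 456 with DMSO. The 3 groups were apart and ordered, rapamycin lowest. Cdkn2d fell by 0.99 ± 0.16 with rapamycin (adjusted p = 1.3e-04), and with SL0101 the change of -0.41 ± 0.16 did not pass (adjusted p = 0.104). Rapamycin was below SL0101 by 0.59 ± 0.16 (adjusted p = 0.0217), a call that was lost without rapamycin replicate 2 or either SL0101 library (adjusted p up to 0.186). The marker sum of mature neutrophils was 62922 and 96777 units with rapamycin and 54123 and 81513 with SL0101, against 115140 and 159790 with DMSO. The inhibitor sums overlapped. Of these 10 markers, none at 0, 3 were lower with rapamycin and 7 with SL0101 against DMSO, and 0 higher. With rapamycin against SL0101 5 were higher and 0 lower. These shares were 30%, 70% and 50%, against 11.7%, 10.9% and 8.87% of all genes. The part of neutrophil maturation in the Cdkn2d result was not tested.

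Cdkn2c, which encodes p18, had few fragments and passed in none of the comparisons. It had 12.7, 7.43 and 9.40 units in Raptor KO against 15.2, 10.1 and 14.6 in Raptor fl/fl, and 13.3, 17.9 and 18.5 in Tsc2 KO against 18.2, 10.2 and 22.6 in Tsc2 fl/fl. Hoxb8 libraries had 6.42 and 14.6 units with rapamycin and 19.2 and 12.1 with SL0101, against 28.4 and 21.6 with DMSO. Both inhibitor groups lay below DMSO, with log2 fold changes of -1.26 ± 0.46 (adjusted p = 0.0803) and -0.66 ± 0.46 (adjusted p = 0.409).

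Markers of other lineages also differed between knockout and control GMPs. Erythroid sums differed in opposite directions in the Raptor and Tsc2 lines. The macrophage, B lymphoid, megakaryocyte and T and NK lymphoid sums each differed in the same direction in both. In the Tsc2 line the erythroid sum given above was higher in the knockout, 7 of 12 markers passed upward and none downward, and all 12 had a median above 1 unit in both groups, while the GMP marker sum was 40578, 8670 and 13024 units in Tsc2 KO against 78756, 36881 and 82932 in Tsc2 fl/fl. Tsc2 KO replicate 1 and Tsc2 fl/fl replicate 2 again fell between the rest. In the Raptor line the erythroid sum was 2317 to 2882 units in Raptor KO, against 4720 to 5206 in Raptor fl/fl, with 4 of 12 markers passing downward. The macrophage sum, over 9 of 10 markers found, was 429 to 1087 units in Raptor KO against 148 to 214 in Raptor fl/fl, and 624 to 924 in Tsc2 KO against 33.0 to 91.2 in Tsc2 fl/fl. Of these 9, 2 passed upward in Raptor KO (22.2%, against 3.94% of all genes), where 3 had log2 fold changes below 0. In Tsc2 KO 6 passed upward (66.7%, against 12.4%), and 0 passed downward in either knockout. The sum of 9 B lymphoid markers was 115 to 166 units in Raptor KO against 745 to 1085 in Raptor fl/fl, and 29.6 to 78.9 in Tsc2 KO against 330.1 to 543 in Tsc2 fl/fl. The sum of 8 megakaryocyte markers was 431 to 475 units in Raptor KO against 1060 to 1294 in Raptor fl/fl, and 162 to 182 in Tsc2 KO against 386 to 781 in Tsc2 fl/fl. In Tsc2 KO the sum of 8 stem and multipotent progenitor markers was 319 to 900.2 units, against 1110 to 1688 in Tsc2 fl/fl. That of 8 T and NK lymphoid markers was 221 to 806 units in Tsc2 KO against 823 to 1310 in Tsc2 fl/fl. It was also lower in Raptor KO, at 1080 to 1222.5 units against 1302 to 1476 in Raptor fl/fl. In Tsc2 KO 6 of these 8 markers were below 1 unit in every library, so the sum rests on few genes. The sum of 8 basophil, mast cell and eosinophil markers was 14550 to 18222 units in Raptor KO, against 5224 to 11160 in Raptor fl/fl, and overlapped between the Tsc2 groups. In Raptor KO 7 of these 8 had log2 fold changes above 0 and 0 passed, where 3.94% of all genes did. The sum of 10 neutrophil maturation markers was 429 to 532 units in Raptor KO, against 687 to 1943 in Raptor fl/fl. Between the Tsc2 groups it overlapped. Of these 10, 2 passed downward in Raptor KO and 0 upward (20%, against 3.94% of all genes). The part of these cell types in the levels of Ccnd2, Ccnd3, Cdk6, Cdkn1c and Cdkn2d was not tested. In Hoxb8 cells 7 to 9 of the 12 erythroid markers were below 1 unit in every library of a group, Hba-a1 and Gata1 among them, and the GMP sum was 60925 and 60160 with rapamycin and 26909 and 34552 with SL0101, against 13737 and 15047 with DMSO. The macrophage sum was 259 and 221 units with rapamycin and 173 and 196 with SL0101, against 702 and 848 with DMSO. The T and NK sum was 103 and 104 with rapamycin and 24.5 and 43.9 with SL0101, against 13.4 and 17.4 with DMSO. In each Hoxb8 group 5 or 6 of the 8 T and NK markers were below 1 unit in every library, so that sum rests on few genes. So were 3 or 4 of the 9 macrophage markers found. The part of these sums in the Hoxb8 results was not tested either.

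**Figure D4:**
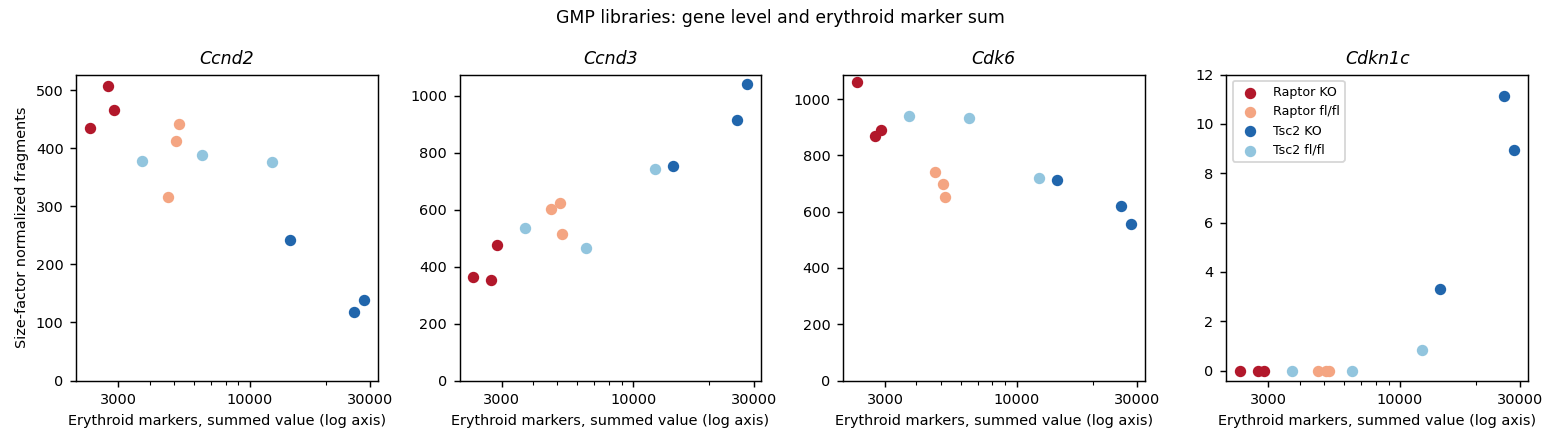
Ccnd2, Ccnd3, Cdk6 and Cdkn1c in each of the 12 GMP libraries against the summed level of 12 erythroid markers, both in signal units and with the sum on a log axis, 1 dot per library. Tsc2 KO replicates 2 and 3 have the highest sums, 28371 and 25836, and Tsc2 fl/fl replicate 2, at 12231, is next to Tsc2 KO replicate 1, at 14409.

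The partners of these genes in the G1 to S step (24 genes, all tested) included E2f2, an E2F factor of proliferating blood cells, which passed in each comparison. It was lower in Raptor KO (-1.50, adjusted p = 0.0321) together with Ccne2, the cyclin E2 gene (-0.94), for 0 genes higher and 2 lower (8.33%, against 3.94% of all genes). In Tsc2 KO E2f2 was higher (1.83, adjusted p = 0.00466), with the cyclin genes Ccna2 (0.68) and Ccnh (0.44), for 3 higher and 0 lower. This share of 12.5% was near the 12.4% of all genes. The list's median log2 fold change was -0.08 in Raptor KO and 0.21 in Tsc2 KO, where that of all genes tested was 0.03 and -0.02. In Hoxb8 cells 2 genes were lower with rapamycin, E2f2 (-1.75) and Ccna2 (-0.90), and 1 with SL0101, E2f2 (-0.84). These shares, 8.33% and 4.17%, were below the 11.7% and 10.9% of all genes.

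Among 23 genes listed as transcriptional regulators of the set, Myc, whose protein binds the E-box, passed in 5 of the 6 comparisons and not between the inhibitors (0.30, adjusted p = 0.3099). It was higher in Raptor KO (0.71 ± 0.13, adjusted p = 0.0043), the only 1 of the 23 to pass there (4.35%, against 3.94% of all genes), and lower in Tsc2 KO (-0.87 ± 0.13, adjusted p = 4.3e-04). In Tsc2 KO 8 of 23 were lower and 0 higher (34.8%, against 12.4% of all genes), with Spi1, the gene of the myeloid factor PU.1 (-1.57), Stat3 (-1.20) and Smad3 (-1.14) next to Myc, and a median of -0.49. With inhibitors Myc was higher by 2.69 ± 0.18 for rapamycin (adjusted p = 1.5e-09) and by 2.38 ± 0.18 for SL0101 (adjusted p = 7.7e-09). Of 22 tested, 3 were higher and 3 lower with rapamycin (27.3%, against 11.7% of all genes). Among them were Gfi1, the gene of a transcriptional repressor (1.41), Trp53 (0.80) and Klf2 (-1.52). With SL0101 1 was higher and 2 lower, Bcl6 (-1.46) and Klf6 (-0.47), a share of 13.6% against 10.9% of all genes.

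Of the 17 factors that turn over or assemble these proteins, few passed in GMPs. In Raptor KO none passed in limma (3 were under 0.05 before adjustment; median -0.08), and in Tsc2 KO 2 were higher (11.8%, against 12.4% of all genes), the CUL4 ubiquitin ligase genes Cul4a (0.81) and Ddb1 (0.42). The HSP90 gene Hsp90ab1, whose chaperone folds CDK4, was higher with rapamycin (1.01) and with SL0101 (0.59). Each inhibitor gave 2 higher and 1 lower (17.6%, against 11.7% of all genes with rapamycin and 10.9% with SL0101), the other genes being Skp1a (0.47) and Cul4a (-0.62) with rapamycin and Dtl (0.58) and Gsk3b (-0.47) with SL0101. The 17 other genes known to be induced by p53 had 0 higher and 3 lower in Raptor KO (17.6%, against 3.94% of all genes), Sesn1 (-1.32), Plk2 (-1.31) and Btg2 (-0.79). In Tsc2 KO 4 were higher and 0 lower (23.5%, against 12.4%), Bax (0.83), Ccng1 (0.76), Zmat3 (2.23) and Sesn2 (2.28). With inhibitors 14 were tested, of which 1 was higher and 2 lower with rapamycin (21.4%, against 11.7% of all genes). With SL0101 0 were higher and 1 lower (7.14%, against 10.9%). Cdkn1a, the p53 target within the set, had log2 fold changes of 0.14 in Raptor KO, 0.04 in Tsc2 KO, -0.17 with rapamycin and -0.31 with SL0101, and passed in none.

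Genes of the phases that follow G1 passed downward in Raptor KO and upward in Tsc2 KO, in unequal numbers. Of 30 S phase genes, 5 were lower and 0 higher in Raptor KO (16.7%, against 3.94% of all genes), led by Gmnn (-0.77), which encodes the licensing inhibitor geminin, and the ligase gene Lig1 (-0.82), with a median of -0.36. In Tsc2 KO 6 were higher and 0 lower (20%, against 12.4% of all genes), led by the flap nuclease gene Fen1 (0.73) and the ribonucleotide reductase gene Rrm1 (0.59), with a median of 0.27. Of 28 mitosis genes, 1 was lower in Raptor KO, Birc5 (-0.67), a share of 3.57% that is near that of all genes, and 11 were higher in Tsc2 KO (39.3%), led by Ube2c (0.88) and the cyclin B1 gene Ccnb1 (0.73). The difference between the knockout effects passed downward for 15 S phase and 12 mitosis genes (50% and 42.9%, against 12.4% of all genes) and upward for none.

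Different numbers of these genes passed with each inhibitor. The median over all genes tested was -0.01 with rapamycin and -0.02 with SL0101. Of all genes, 11.7% passed with rapamycin, 10.9% with SL0101 and 8.87% between the inhibitors. With rapamycin 78.6% of mitosis and 6.67% of S phase genes passed, and with SL0101 7.14% and 33.3%. Between the inhibitors these shares were 64.3% and 33.3%, and that of the G1 to S partners was 20.8%. With rapamycin 22 of 28 mitosis genes were lower and 0 higher (median -0.67), led by Nusap1 (-0.87), Prc1 (-0.91) and the kinase gene Plk1 (-1.05), while S phase genes had 1 higher and 1 lower. With SL0101 10 of 30 S phase genes were higher and 0 lower (median 0.36), led by the helicase gene Mcm2 (0.87), Dut (0.92) and Hells (1.10), and 2 mitosis genes were lower, Hmmr (-0.65) and Mki67 (-0.53). Compared directly, rapamycin was below SL0101 in 18 mitosis genes, among them Racgap1 (-1.05) and Kif11 (-0.96), in 10 S phase genes, among them Rrm2 (-0.88), and in 5 partners, among them Ccna2 (-1.19) and Cdk2 (-0.70), with none above. The summed mitosis level was 8186 and 10580 units with rapamycin and 13983 and 14164 with SL0101, against 14508 and 14722 with DMSO. Ccnd2 and Cdk6, higher with both inhibitors, thus stood beside lower mitosis genes with rapamycin and beside higher S phase genes with SL0101.

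**Figure D5:**
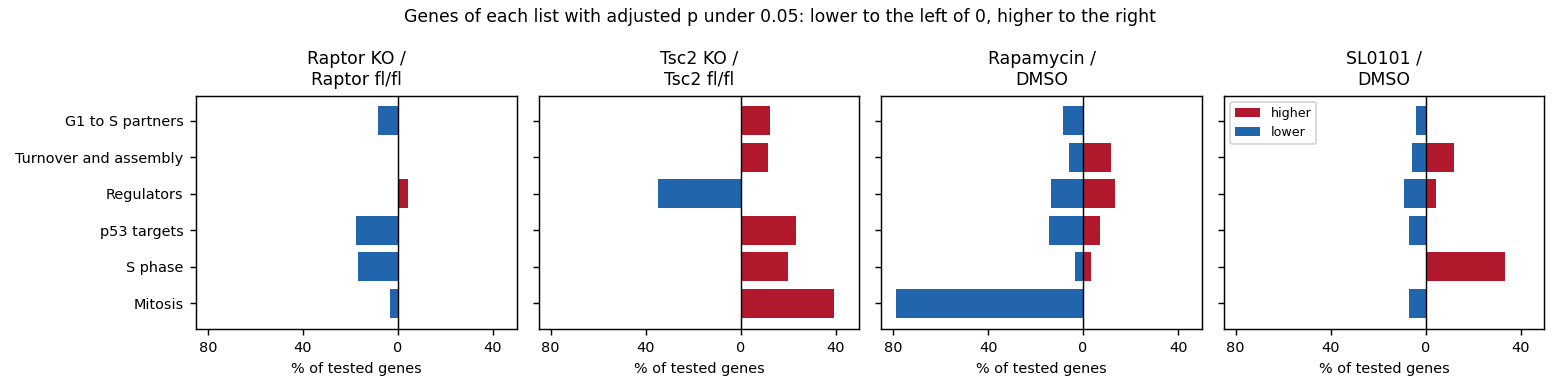
Share of the tested genes of each of 6 pathway lists, in percent, that passed upward (right of 0) or downward (left of 0) at an adjusted p of 0.05 in limma, for both knockouts and both inhibitors. The longest bars are the 22 of 28 mitosis genes lower with rapamycin and the 11 of 28 higher in Tsc2 KO.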

How the data were processed

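The deposited values are signal units, in which the authors scaled each gene's fragments by a library size factor, for 22787 genes in 18 libraries. Per the submitters' processing notes, BWA, TopHat2 2.0.10, Cufflinks 2.2.1 and Cuffnorm were used. No build is given in the sources used here. Groups come from the sample titles, since the genotype field of the Tsc2 samples names Raptor. In each library 98.9% to 99.0% of values above 0 were multiples of 1 step (tolerance 0.01), from which fragments per library follow.

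Log2 of the value plus 1 was fitted in limma 3.58.1 (R 4.3.3), with an expression trend and robust moderation, separately for 12 GMP and 6 Hoxb8 libraries. Genes at 1 or more in at least 3 GMP or 2 Hoxb8 libraries were tested. P values were adjusted (Benjamini-Hochberg) over all genes of each of 6 comparisons, at 0.05. The test was also run on simulated data with independent noise, its spread a smooth function of level. That run cannot show how the calls depend on each gene's own spread. Whether replicate numbers pair libraries is not known, and no pairing was used in the reported fits. Correlations of same-number libraries, after group means were removed, ran from -0.03 to 0.245. In the Tsc2 line they were 0.217, 0.245 and -0.03, against -0.29 to 0.11 for unlike numbers. With 2 libraries per Hoxb8 group this check says little. The genes and lists were chosen with earlier results of these data known; all 10 are named, plus up to 4 of the lowest adjusted p per list that passed. Voom weights, normalizations, pseudocounts, filters, other library sets and leaving out each library were alternatives.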

Additional observations from a re-analysis of the deposited data

Results flagged for a closer look

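The effects of Raptor loss and of Tsc2 loss in GMPs differed for Ccnd2, Ccnd3 and Cdk6 in a direct test of the difference (limma, Benjamini-Hochberg over 13237 genes, of which 12.4% passed). For Ccnd2 the log2 effect of Raptor KO (0.28) minus that of Tsc2 KO (-1.26) was 1.54 ± 0.29 (SE, adjusted p = 0.0036). For Cdk6 it was 0.88 ± 0.19 (adjusted p = 0.00715), from effects of 0.43 and -0.45. For Ccnd3 it was -1.20 ± 0.24 (adjusted p = 0.00486), from effects of -0.55 and 0.65. Each of the 3 differences passed with any 1 library left out, whereas without trend and robust moderation those of Ccnd3 (adjusted p = 0.0505) and Cdk6 (0.0606) did not pass. Cdkn1c, listed at 0 in both Raptor groups, gives no effect to compare. The erythroid marker sums moved in the same comparisons (2317 to 2882 units in Raptor KO against 4720 to 5206 in Raptor fl/fl, and 14409 to 28371 in Tsc2 KO against 3724 to 12231 in Tsc2 fl/fl), and their part in these differences was not tested.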

How the results depend on the processing

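Ccnd2 passed in the Tsc2 KO comparison and in the difference between the knockout effects under every alternative run. In both inhibitor comparisons Ccnd2 and Cdk6 passed under all but the fit with neither trend nor robust moderation. The number of genes that passed, here with Cdkn1c counted wherever it was tested, moved as follows. Without trend and robust moderation it was 2 in Tsc2 KO (4 with the reported settings), 2 in the difference between the knockouts (4), 0 with rapamycin (3), 0 with SL0101 (2) and 0 between the inhibitors (2), with adjusted p of 0.0561 for Ccnd2 and 0.0595 for Cdk6 with rapamycin. With only the groups compared it was 2 in Raptor KO (0), 2 in Tsc2 KO, where Ccnd3 and Cdk6 were lost, and 1 between the inhibitors. Quantile normalization gave 1 in Raptor KO and 1 between the inhibitors, ended the call of Ccnd3 in Tsc2 KO (adjusted p = 0.0631) and added Ccnd3 with rapamycin (0.0209), and 1 fit of all 18 libraries gave 1 and 0. Cdk4 passed with SL0101 under quantile normalization (0.0447), a filter at 10 (0.0456), a common total (0.0467), only the groups compared (0.0317), voom (0.0335) and the replicate block (0.0167). Ccnd2 passed between the inhibitors with only the groups compared (0.0407), voom (0.0269) and the replicate block (0.0266). A replicate block gave 2 in Raptor KO and 4 with SL0101. Leaving out 1 library gave 0 in each Raptor fit, 1 to 4 in Tsc2 KO, 3 to 4 for the difference, 3 to 4 with rapamycin, 2 in each SL0101 fit and 0 to 1 between the inhibitors. Sign changes occurred only in genes that had not passed: Cdk4 in Raptor KO at a common total (-0.0057) and with voom (-0.0070), Cdkn1a in Tsc2 KO with quantile normalization (-0.011) and without both male libraries (-0.060), and Cdkn2c in Tsc2 KO at a common total (-0.0015), with voom (-0.015) and without both male libraries (-0.35). With 1 library left out, log2 fold changes ran from -0.044 to 0.054 for Cdk4 and -0.16 to 0.12 for Cdkn1b in Raptor KO, -0.13 to 0.29 for Cdkn1a and -0.29 to 0.25 for Cdkn2c in Tsc2 KO, and -0.15 to 0.27 for Cdkn1a in the difference. They ran from -0.32 to 0.43 for Ccnd1 and -0.38 to 0.042 for Cdkn1a with rapamycin, and -0.070 to 0.35 for Cdkn1a between the inhibitors. Over all genes, calls under the other settings ran from 215 to 1249 in Raptor KO (522 in the report), 471 to 2499 in Tsc2 KO (1638), 714 to 2482 for the difference (1646), 188 to 1857 with rapamycin (1386), 97 to 1828 with SL0101 (1284) and 14 to 1691 between the inhibitors (1047). The causes were not tested. Planned count-based tests were not run, since some values were no multiple of the step. Depth limits Cdkn1c, Ccnd1 and Cdkn2c, which rest on few fragments.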
